A study of Homo sapiens with 10 samples.

Results

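The comparison described here is between bortezomib-resistant and parental cells of the JEKO line, an established human mantle cell lymphoma cell line. The arrays were chosen by their titles: 2 arrays titled JEKO BR and 2 titled JEKO PT, 4 of the 10 arrays of the series. The other 6 arrays hold the line HBL2, with 3 BR and 3 PT arrays. The labels give the BR culture as made resistant by bortezomib, with no dose, time or number of clones. They give PT only as letters, and PT is taken here as the matched parental cells from knowledge of the study. All 4 JEKO samples are total RNA from cells in logarithmic growth, and no agent is given for the cells at harvest. The labels do not say whether replicates were separate cultures, so p-values here rest on the scatter among the samples alone, and that scatter may be technical.

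In mantle cell lymphoma, which arises from mature B lymphocytes, a chromosomal translocation usually places cyclin D1 under an immunoglobulin enhancer. Bortezomib inhibits the 20S proteasome, mainly at the subunit encoded by PSMB5, and cells that make much secreted protein, such as plasma cells, lean heavily on that proteasome. The title of the series links resistance with plasma cell features, so genes that separate B cells from plasma cells are among those described.

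Of 54675 probe sets on the array, 41091 were annotated to exactly 1 gene symbol, which stand for 19775 genes, and 14529 genes were bright enough to test. The deposited value is called a score here: on every array it spans 0 to 4.99, the middle value is 0.73 and 1.18 marks the 75th percentile, it looks logarithmic, and its base is not stated. Changes are therefore BR minus PT in deposited units, never folds. Levels of different genes are not compared, and changes are ordered by size only to choose which genes to describe, since a given difference need not mean the same at another level. A gene is said to have risen or fallen when its limma adjusted p (Benjamini-Hochberg over all genes tested) was under 0.05. In JEKO 622 genes (4.28%) passed, 372 higher (2.56%) and 250 lower (1.72%) in BR, beside 2559 genes with an unadjusted p under 0.05. The arrays of BR and PT did not overlap for any of the 622, but they also did not overlap for 50.8% of all genes tested. The median change of all genes was 0.012, and the smallest called change was 0.24. With 2 arrays a group the calls lean on each array: leaving out replicate 1 or replicate 2 of JEKO BR gave 281 or 120 calls, leaving out replicate 1 or replicate 2 of JEKO PT gave 208 or 246, and leaving out replicate 3 of HBL2 PT gave 942. Of the 622 calls, 85 (54 higher and 31 lower) held whichever of the 4 JEKO arrays was left out. JEKO BR replicate 2 also had the lowest GAPDH 5' minus 3' control value of all arrays (-0.64, against -0.31 on JEKO BR replicate 1 and -0.39 and -0.30 on the PT arrays), and with that value as a covariate 335 genes were called. Below, the left-out range of a gene is the lowest and highest adjusted p in the 4 fits that each leave out 1 JEKO array.

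Called genes that went between scores below the 50th percentile and scores at or above the 75th were picked out, so their contrast follows from the rule. By that rule 7 genes left the top range, at or above the 75th percentile, in BR (MRFAP1L1, OXCT1, KBTBD7, YIPF6, CD44, SCRN1 and WDR35) and 8 entered it (WDR86, PURPL, CCND2, NPDC1, LILRA2, YES1, KISS1R and F12). The promoters of 4 of the first group and 2 of the second are shown as examples of the genes picked by that rule. Each is the 250 bases before the RefSeq gene start (GRCh38.p14), read along the gene's strand, with every CG dinucleotide in capitals.
MRFAP1L1, chr4:6709866-6710115 (-): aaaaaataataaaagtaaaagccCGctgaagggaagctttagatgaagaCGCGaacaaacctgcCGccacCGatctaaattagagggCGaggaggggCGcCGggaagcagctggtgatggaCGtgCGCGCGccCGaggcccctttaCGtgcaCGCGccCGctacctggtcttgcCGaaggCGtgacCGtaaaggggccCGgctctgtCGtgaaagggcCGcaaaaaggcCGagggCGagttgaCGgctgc
YIPF6, chrX:68498801-68499050 (+): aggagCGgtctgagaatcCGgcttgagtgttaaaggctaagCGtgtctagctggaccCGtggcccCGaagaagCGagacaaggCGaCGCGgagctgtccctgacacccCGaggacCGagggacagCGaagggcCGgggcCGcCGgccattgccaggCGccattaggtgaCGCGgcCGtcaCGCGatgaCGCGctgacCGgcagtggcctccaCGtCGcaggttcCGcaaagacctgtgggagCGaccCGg
CD44, chr11:35138921-35139170 (+): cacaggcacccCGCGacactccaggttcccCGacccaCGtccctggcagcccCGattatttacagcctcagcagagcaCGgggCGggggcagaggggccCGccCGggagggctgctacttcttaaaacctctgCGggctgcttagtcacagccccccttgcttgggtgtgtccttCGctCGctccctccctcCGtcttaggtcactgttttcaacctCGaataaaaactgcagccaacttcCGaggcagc
SCRN1, chr7:29989802-29990051 (-): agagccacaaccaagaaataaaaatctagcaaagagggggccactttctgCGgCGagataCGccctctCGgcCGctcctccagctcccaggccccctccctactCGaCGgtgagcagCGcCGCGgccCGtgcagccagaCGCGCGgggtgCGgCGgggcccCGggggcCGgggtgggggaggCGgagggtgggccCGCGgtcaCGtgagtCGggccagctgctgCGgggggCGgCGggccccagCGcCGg
NPDC1, chr9:137046178-137046427 (-): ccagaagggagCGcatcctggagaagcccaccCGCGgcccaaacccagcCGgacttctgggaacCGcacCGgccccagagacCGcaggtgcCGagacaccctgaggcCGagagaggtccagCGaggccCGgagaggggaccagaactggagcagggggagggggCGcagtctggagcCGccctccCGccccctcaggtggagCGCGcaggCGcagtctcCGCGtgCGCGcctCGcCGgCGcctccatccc
PURPL, chr5:27472042-27472291 (+): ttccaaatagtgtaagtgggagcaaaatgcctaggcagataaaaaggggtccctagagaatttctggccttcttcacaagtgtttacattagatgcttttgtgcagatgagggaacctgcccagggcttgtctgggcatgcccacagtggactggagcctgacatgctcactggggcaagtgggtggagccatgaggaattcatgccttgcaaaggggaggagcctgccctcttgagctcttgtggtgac
The windows of MRFAP1L1, YIPF6, CD44 and SCRN1 hold 26, 29, 15 and 28 CG dinucleotides, against 24 for NPDC1 and 0 for PURPL. Over the 16655 promoter entries of the 11577 tested genes in the table, 97.9% hold at least 1 CG, with a median of 19 and quartiles of 8 and 27. Of the 7 genes that left the top range 5 are in the table, with 2 to 29 CG in an entry, and of the 8 that entered it 6 are, with 0 to 32. These counts describe the sequence, and no methylation was measured.

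MRFAP1L1, a gene of little known function, scored 2.08 and 2.03 on the JEKO PT arrays and 0.53 and 0.55 on the BR arrays. Both PT arrays lay far above the 75th percentile and both BR arrays below the median, a fall of 1.52 ± 0.087 (standard error, adjusted p = 1.23e-07). YIPF6, which encodes a membrane protein of the Golgi, scored 1.33 and 1.36 in PT and 0.32 and 0.37 in BR (-1.001 ± 0.077, adjusted p = 3.21e-06). Its other 3 probe sets fell too, by 0.37 to 0.75. SCRN1, the gene of secernin, scored 1.32 and 1.32 in PT and 0.42 and 0.43 in BR (-0.90 ± 0.14, adjusted p = 0.0015). WDR35, a component of the transport machinery of cilia, scored 1.35 and 1.31 in PT against 0.67 and 0.72 in BR (-0.64 ± 0.075, adjusted p = 1.60e-04), and its other probe set fell as well (-0.59). KBTBD7, an adaptor of a CUL3 ubiquitin ligase, scored 1.42 and 1.24 in PT and 0.47 and 0.12 in BR (-1.03 ± 0.17, adjusted p = 0.0028). Its adjusted p was 0.061 without JEKO BR replicate 2 and 0.064 without JEKO PT replicate 1. In HBL2 neither MRFAP1L1 (0.059) nor YIPF6 (0.0097), SCRN1 (-0.11), WDR35 (0.032) or KBTBD7 (0.18) was called.

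OXCT1, which encodes the mitochondrial enzyme that lets cells burn ketone bodies, scored 1.91 and 1.76 in JEKO PT and 0.69 and 0.45 in BR. The groups were far apart beside their own spread (-1.27 ± 0.14, adjusted p = 8.53e-05). SMAD1, a transcription factor that carries the signal of BMP receptors, scored 1.999 and 1.97 in PT and 0.80 and 0.82 in BR (-1.18 ± 0.075, adjusted p = 2.84e-07). Its other 2 probe sets changed by -0.70, which was called, and -0.56, which was not. SQOR, a mitochondrial enzyme that oxidises sulfide, scored 1.76 and 1.84 in PT and 1.09 and 1.19 in BR (-0.66 ± 0.083, adjusted p = 2.99e-04). TUBB6, a beta-tubulin, scored 2.10 and 2.12 in PT and 1.33 and 1.36 in BR, a fall of 0.77 ± 0.071 (adjusted p = 2.26e-05). RIOX1, a histone demethylase and ribosomal oxygenase, scored 1.95 and 1.83 in PT and 1.22 and 1.07 in BR (-0.74 ± 0.077, adjusted p = 7.19e-05). ARMCX6 scored 1.94 on both PT arrays and 0.90 and 0.94 in BR (-1.02 ± 0.081, adjusted p = 4.19e-06), but its other probe set changed by 0.21 and was not called. These falls and those of MRFAP1L1, YIPF6, SCRN1 and WDR35 held whichever JEKO array was left out. The call of SCRN1 was lost with normal scores in place of the deposited values.

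**Figure D1:**
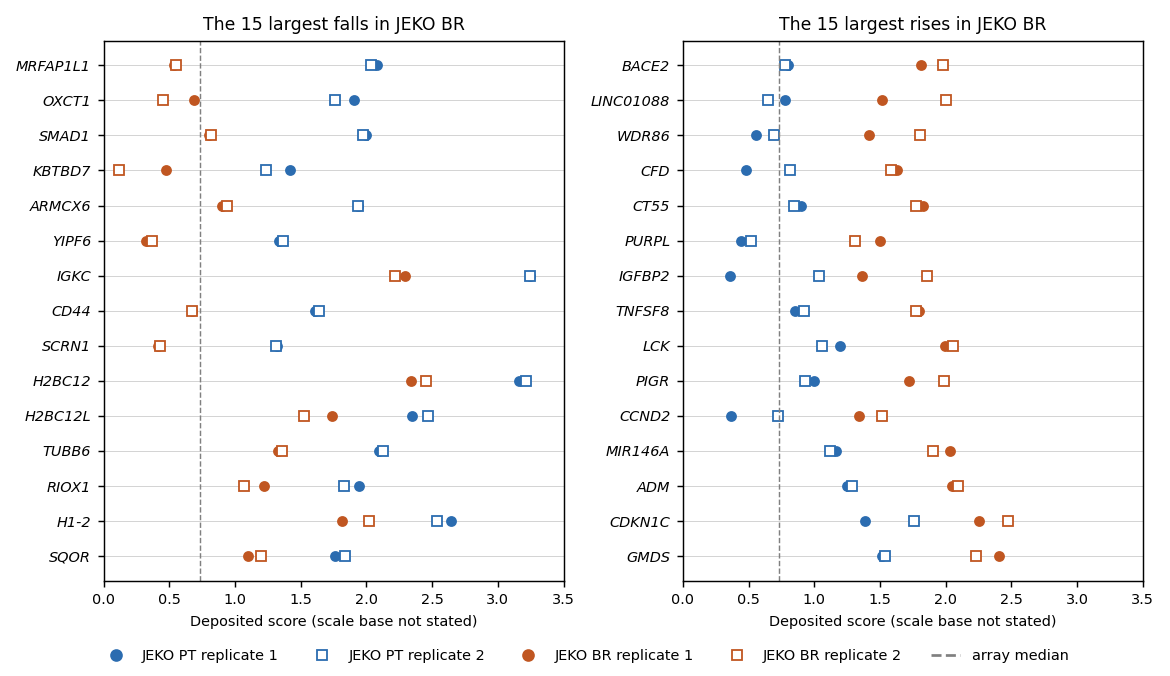
Deposited scores of the 15 largest falls (left) and 15 largest rises (right) on the 4 JEKO arrays, with blue for PT, orange for BR, filled circles for replicate 1 and open squares for replicate 2, and the array median of 0.73 as a dashed line. MRFAP1L1 goes from above 2 to below the median, while H2BC12 falls but stays well above it; IGKC is drawn by its brightest probe set, which another of its probe sets opposes, and the PT arrays of CFD, IGFBP2 and CCND2 lie apart from each other.

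Among the rises, BACE2, a protease related to the beta-secretase of amyloid precursor protein, scored 0.80 and 0.77 in JEKO PT and 1.81 and 1.98 in BR (1.11 ± 0.099, adjusted p = 1.61e-05). All 3 of its probe sets moved up, by 0.68 to 1.18. WDR86, a WD-repeat gene, scored 0.55 and 0.69 in PT and 1.42 and 1.80 in BR (0.99 ± 0.13, adjusted p = 5.70e-04). CFD, the serine protease that activates complement factor B, scored 0.48 and 0.82 in PT and 1.63 and 1.58 in BR (0.96 ± 0.13, adjusted p = 6.36e-04). The PT arrays of CFD lay apart from each other, but neither came near the BR arrays. CT55, normally a testis gene, scored 0.90 and 0.84 in PT and 1.83 and 1.77 in BR (0.93 ± 0.092, adjusted p = 4.58e-05). NPDC1, a gene described in neural cells, scored 0.43 and 0.42 in PT and 1.19 and 1.25 in BR (0.79 ± 0.096, adjusted p = 2.08e-04). F12, the coagulation factor XII gene, scored 0.66 and 0.69 in PT and 1.29 and 1.26 in BR (0.60 ± 0.088, adjusted p = 0.0010). All 6 of these calls held whichever JEKO array was left out.

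TNFSF8, the ligand of the receptor CD30, scored 0.86 and 0.92 in PT and 1.80 and 1.78 in BR (0.90 ± 0.12, adjusted p = 4.94e-04), and its other 2 probe sets moved the same way (0.50 and 0.58). LCK, a Src-family kinase best known from T cells, scored 1.20 and 1.06 in PT and 1.99 and 2.05 in BR (0.89 ± 0.10, adjusted p = 1.27e-04), and its other probe set rose by 0.57. GMDS, an enzyme of GDP-fucose synthesis, scored 1.51 and 1.54 in PT and 2.41 and 2.23 in BR (0.79 ± 0.082, adjusted p = 6.95e-05), with its other probe set at 0.63. CDKN1C, which encodes the cyclin-dependent kinase inhibitor p57, scored 1.39 and 1.76 in PT and 2.25 and 2.48 in BR (0.79 ± 0.12, adjusted p = 0.0014), and its other 3 probe sets rose by 0.42 to 0.52. These were rises seen on more than 1 probe set, and the calls held whichever JEKO array was left out. PIGR, the receptor that carries polymeric immunoglobulin across epithelia, scored 1.001 and 0.93 in PT and 1.72 and 1.98 in BR (0.89 ± 0.11, adjusted p = 1.90e-04), but its other probe set changed by 0.12 and was not called. LINC01088, a long noncoding RNA, scored 0.78 and 0.65 in PT and 1.51 and 2.004 in BR (1.05 ± 0.16, adjusted p = 0.0017), with an adjusted p of 0.070 without JEKO BR replicate 2 and -0.044 on its other probe set. With percentile ranks the calls of TNFSF8, LCK, CDKN1C, PIGR and LINC01088 were lost.

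MIR146A scored 1.17 and 1.12 in JEKO PT and 2.04 and 1.91 in BR (0.83 ± 0.088, adjusted p = 8.25e-05). The microRNA made from this gene is known as a brake on NF-kB signalling, and it is shown to identify the product, with its seed (bases 2 to 8) in capitals. RefSeq (GRCh38.p14) gives the mature strand as follows.
hsa-miR-146a-5p, chr5:160485372-160485393 (+): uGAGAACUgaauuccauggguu
Arrays of this kind label longer RNA, so the score belongs to the transcript that the probe set is annotated to, and the mature microRNA was not measured.

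Several genes had probe sets that disagreed. IGKC, the constant region of the kappa light chain, scored 3.24 on both JEKO PT arrays and 2.29 and 2.22 in BR on its brightest probe set (-0.99 ± 0.098, adjusted p = 4.58e-05). Another probe set annotated to IGKC scored 0.62 and 0.59 in PT and 3.20 and 2.83 in BR, a rise of 2.42 ± 0.10 (adjusted p = 5.27e-09 over all probe sets), and 4 more were not called (-0.28 to 0.38). A probe set annotated to IGLC1, a lambda light chain constant region named here after its values were seen, scored 0.19 and 0.32 in PT and 2.93 and 2.73 in BR (2.58 ± 0.12, adjusted p = 1.54e-08), while the brightest of IGLC1 changed by 0.16 and its other 3 were not called. One of RPS6, a ribosomal protein gene also named after its values were seen, went from 0.22 and 0.32 to 1.86 and 2.07 (1.70 ± 0.100), and in HBL2 the same probe set changed by 1.88. In HBL2 those of IGLC1 and IGKC changed by 0.025 and -0.053. The brightest probe set stands for a gene here, so none of these 3 rises is among the 372. Probe sets of immunoglobulin genes can bind related light chains, so no direction is given for IGKC or IGLC1. CCND2, which encodes cyclin D2, scored 0.37 and 0.72 in PT and 1.34 and 1.52 in BR on 1 probe set (0.88 ± 0.10, adjusted p = 1.60e-04), while its other 3 scored between 0.24 and 0.81 on all 4 arrays and were not called (-0.24 to 0.048). CD44, the receptor for hyaluronan, scored 1.61 and 1.64 in PT and 0.67 on both BR arrays (-0.95 ± 0.14, adjusted p = 0.0010). Its 7 other tested probe sets were all lower in BR (-0.67 to -0.26), and 2 of them were called. CKAP2, a spindle protein gene named here after its values were seen, had a main probe set at 0.077 and another that fell from 1.62 and 1.65 to 0.49 and 0.83 (-0.97 ± 0.12, adjusted p = 4.60e-04). In all, 12 called probe sets opposed the sign of their gene's main value.

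**Figure D2:**
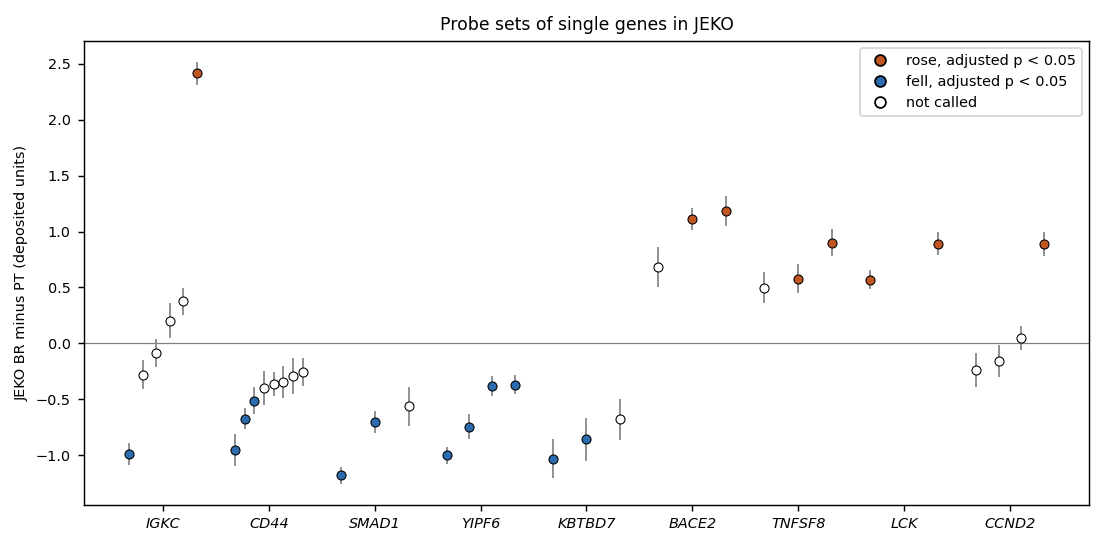
Change of each tested probe set of 9 genes in JEKO (BR minus PT, deposited units), with standard errors as bars, orange for a rise, blue for a fall and white for no call. All probe sets of CD44 and YIPF6 lie below 0, while those of IGKC run from -0.99 to 2.42 and only 1 of the 4 of CCND2 was called.

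The gene lists were read next, and each count stands beside the share of all genes that rose (2.56%) or fell (1.72%). Members and lists were chosen with earlier results of these data known, so no list count is a test against those shares. In the plasma cell program 6 of 27 tested genes rose, 1 fell and 20 were not called, with a median change of 0.12 against 0.012 for all genes. Called or not, 20 of the 27 were higher in BR and 7 lower. The lowest was JCHAIN, which changed by -0.38 and was not called. CAV1, the structural protein of caveolae, scored 0.66 and 0.78 in PT and 1.43 and 1.48 in BR (0.74 ± 0.077, adjusted p = 7.19e-05). PIM2, a survival kinase, scored 1.55 and 1.58 in PT and 2.25 and 2.29 in BR (0.71 ± 0.076, adjusted p = 8.35e-05). These were the 2 members whose call held whichever JEKO array was left out. FKBP11, a folding factor of the endoplasmic reticulum, went from 1.70 and 1.65 to 2.14 and 2.22 (0.50 ± 0.085, adjusted p = 0.0031, and 0.064 without JEKO BR replicate 2), with 0.43 and -0.037 on its other 2 probe sets. SDC1, which encodes the plasma cell surface marker CD138, went from 0.83 and 0.42 to 1.14 and 1.12 (0.50 ± 0.12, adjusted p = 0.024, left-out range 0.0070 to 0.24). JEKO PT replicate 1 of SDC1 lay nearer to the BR arrays than to the other PT array, and the other probe set of SDC1 (0.26) was not called. TENT5C (0.40, left-out range 0.043 to 0.18) and LAX1 (0.37, left-out range 0.041 to 0.20) also rose, and CD38 fell by 0.31 ± 0.085 at the edge of the threshold (adjusted p = 0.0495, left-out range 0.057 to 0.34). The transcription factors IRF4, XBP1 and PRDM1 changed by 0.25, 0.25 and 0.14 and the surface receptors TNFRSF17 (BCMA) and TNFRSF13B (TACI) by 0.065 and 0.12, none of them called, with adjusted p of 0.15, 0.086, 0.42, 0.75 and 0.53. Without JEKO BR replicate 2 the list had 2 rises and 0 falls, and with the GAPDH covariate 3 and 0.

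In the mature B cell program 3 of 33 genes rose and 3 fell, with a median of -0.068. CXCR5, the follicle-homing receptor, rose by 0.39 (left-out range 0.056 to 0.25), CD22 by 0.35 (0.059 to 0.37) and BLNK by 0.28 (0.088 to 0.29). The other probe set of CXCR5 changed by 0.10 and was not called. TLR10 fell by 0.48 (left-out range 0.019 to 0.36), FCRL2 by 0.37 (0.039 to 0.40) and BANK1 by 0.32 (0.083 to 0.27). Each of these calls was lost without JEKO BR replicate 2, so the list then had 0 rises and 0 falls in limma, beside 14 members with an unadjusted p under 0.05 when all arrays were used. The identity genes of B cells stayed high: PAX5 scored 2.75 and 2.72 in PT and 2.78 and 2.66 in BR (-0.014), MS4A1, the gene of CD20, 3.03 and 2.92 against 3.15 and 2.98 (0.096), and CD79A and CD79B changed by -0.092 and -0.13. B cell receptor signalling had 1 rise, the transcription factor NFATC1 (0.45, adjusted p = 0.019, left-out range 0.010 to 0.27), and 1 fall, BTK, the kinase targeted by ibrutinib, among 20 genes. BTK scored 2.05 and 2.04 in PT and 1.62 and 1.78 in BR (-0.34 ± 0.076, adjusted p = 0.018, left-out range 0.044 to 0.18).

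Genes of the drug's own target moved little. PSMB5 scored 2.25 and 2.22 in PT and 2.25 and 2.19 in BR, a change of -0.012 ± 0.065 (adjusted p = 0.96). None of 13 tested 20S core genes was called by limma (0 rises and 0 falls, 2 with an unadjusted p under 0.05), and their changes ran from -0.088 to 0.24 with a median of 0.010. None of 18 genes of the 19S regulator was called (0 and 0, 6 unadjusted), with PSMD5, an assembly chaperone, lowest at -0.33 and a median of -0.073. The immunoproteasome subunits PSMB8, PSMB9 and PSMB10, which can replace the catalytic subunits, changed by 0.097, 0.25 and -0.0031 and the activator subunit PSME1 by 0.21, none of them called (adjusted p = 0.55, 0.092, 0.99 and 0.19). The unfolded protein response had 0 calls of 30 (7 unadjusted, median 0.046), and its chaperone HSPA5 scored 2.69 and 2.47 in PT and 2.62 and 2.51 in BR. Cytosolic heat shock genes had 0 calls of 16 (5 unadjusted, median -0.070), NRF2 and antioxidant genes 0 of 21 (4 unadjusted, median 0.054), autophagy and lysosome genes 0 of 25 (3 unadjusted, median 0.0057), and cholesterol synthesis 0 of 18 (1 unadjusted, median 0.013). Of 31 genes of the ATF4 stress response 2 rose, DDIT4, an inhibitor of mTORC1 (0.39, left-out range 0.018 to 0.18), and ATF3 (0.33, left-out range 0.052 to 0.24, with -0.094 on 1 of its other 2 probe sets). A p over the threshold with 2 arrays a group does not show that these levels were equal. Of 13 ABC transporters 1 fell, the cholesterol exporter ABCG1 (-0.30, left-out range 0.037 to 0.34), and the drug pump ABCB1 scored 0.73 and 0.59 in PT and 0.53 and 0.50 in BR (-0.15, adjusted p = 0.68).

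Of 19 p53 targets 4 rose and 0 fell, with a median of 0.19. PURPL, a long noncoding RNA switched on by p53, scored 0.44 and 0.52 in JEKO PT and 1.497 and 1.31 in BR (0.92 ± 0.11, adjusted p = 1.27e-04). CDKN1A, the gene of the cell cycle inhibitor p21, scored 1.22 on both PT arrays and 1.78 and 1.67 in BR (0.51 ± 0.079, adjusted p = 0.0018). Both held whichever JEKO array was left out. TP53INP1 rose by 0.47 (left-out range 0.014 to 0.36) and MDM2, the ubiquitin ligase of p53, by 0.28 (0.12 to 0.26), though 3 of its other 6 probe sets were lower (-0.14, -0.069 and -0.11) and none of the 6 was called. BAX (0.17), ZMAT3 (0.31) and TNFRSF10B (0.20) were not called, nor was DDB2, the lowest of the 19 at -0.21. Of the 19 genes 15 were higher in BR and 4 lower. Without JEKO BR replicate 2 the list had 2 rises, and with the GAPDH covariate 2.

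In the BCL2 family 2 of 14 genes rose and 0 fell. BCL2, the survival protein that venetoclax binds, scored 1.73 and 1.72 in PT and 2.11 and 2.19 in BR (0.43 ± 0.074, adjusted p = 0.0033, and 0.074 without JEKO BR replicate 2), and its other 3 probe sets were higher but not called (0.026 to 0.38). BIK, a BH3-only death gene whose protein the proteasome degrades, scored 0.74 and 0.68 in PT and 1.34 and 1.13 in BR (0.52 ± 0.094, adjusted p = 0.0045, and 0.070 without JEKO BR replicate 1). MCL1 changed by 0.10, PMAIP1, the gene of NOXA, by -0.072 and BCL2A1, the lowest of the 14, by -0.33, none of them called. Of 36 cell cycle and DNA replication genes 2 fell, CCNB2 (-0.36, left-out range 0.042 to 0.14) and TYMS, thymidylate synthase (-0.32, left-out range 0.057 to 0.12), and 29 were lower with a median of -0.062. Among D cyclins and genes altered in mantle cell lymphoma, CCND2 on its 1 probe set and NOTCH1 (0.29, left-out range 0.14 to 0.21) rose, 2 of 15. CCND1, the hallmark cyclin of this lymphoma, scored 3.33 and 3.26 in PT and 3.02 and 3.06 in BR (-0.25 ± 0.078, adjusted p = 0.085), and SOX11 changed by -0.13 (adjusted p = 0.51). The change of CCND1 was called in the fit of JEKO arrays alone (adjusted p = 0.023) and its other probe set changed by 0.24.

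NF-kB components and targets had 6 rises and 0 falls among 22 genes, with a median of 0.16. TNFAIP3, the ubiquitin-editing inhibitor A20, scored 1.31 and 1.52 in PT and 1.89 and 1.97 in BR (0.52 ± 0.084, adjusted p = 0.0024, and 0.054 without JEKO BR replicate 2). Its other probe set rose by 0.42. CCR7, the lymph node homing receptor, scored 1.61 and 1.70 in PT and 2.22 and 2.19 in BR (0.55 ± 0.13, adjusted p = 0.024, left-out range 0.087 to 0.18). NFKBIZ, an atypical inhibitor protein that also acts as a coactivator, rose by 0.44 (left-out range 0.062 to 0.18) and the chemokine CCL4 by 0.43 (0.062 to 0.18). NFKBIE (0.34, left-out range 0.054 to 0.22) and NFKBIA, the gene of the classical inhibitor (0.30, left-out range 0.077 to 0.33), complete the 6. The subunits NFKB1, NFKB2, REL, RELA and RELB were not called (-0.17, 0.15, -0.12, -0.20 and 0.024), nor were the inhibitor gene NFKBIB (0.050) and TNIP1 (0.24), a partner of A20. BCL2A1, the lowest of the 22, changed by -0.33 and was not called. Of the 22 genes 16 were higher in BR and 6 lower. None of the 6 calls held in all 4 fits that leave out a JEKO array. No member was called without JEKO BR replicate 2, and with the GAPDH covariate 2 were. Promoters of 2 of the 6 risen members are shown as examples, as 250 bases before the RefSeq start with matches to the kappa-B consensus in capitals.
NFKBIA, chr14:35404750-35404999 (-): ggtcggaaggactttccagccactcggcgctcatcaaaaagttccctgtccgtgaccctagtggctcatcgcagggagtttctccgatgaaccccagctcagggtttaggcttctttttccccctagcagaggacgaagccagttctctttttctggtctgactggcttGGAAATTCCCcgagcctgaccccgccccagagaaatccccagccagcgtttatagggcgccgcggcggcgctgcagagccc
TNFAIP3, chr6:137867009-137867258 (+): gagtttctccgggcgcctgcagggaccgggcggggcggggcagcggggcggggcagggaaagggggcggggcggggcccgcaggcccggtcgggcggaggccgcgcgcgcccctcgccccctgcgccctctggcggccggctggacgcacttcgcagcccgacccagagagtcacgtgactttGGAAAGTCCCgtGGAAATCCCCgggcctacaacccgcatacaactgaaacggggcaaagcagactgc
A match, searched on both strands by that consensus, is in 11.8% of promoter entries of tested genes. NFKBIA holds 1, TNFAIP3 2 and NFKBIZ 1 before each of its 2 starts, and these were the 3 of the 6 genes found in the table. The list was made of NF-kB components and targets, and of its members only the 6 that rose were looked up. Matches were therefore likely whatever the arrays showed, and their number beside 11.8% is no test. A match says nothing on binding in these cells.

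Chemokine and homing receptors overlapped with that list, with 4 rises of 15 (CCR7, CCL4, CXCR5 and ACKR3) and 0 falls, and 0 rises without JEKO BR replicate 2. ACKR3, a scavenging receptor for CXCL12, scored 0.62 and 0.86 in PT and 1.07 and 1.33 in BR (0.46 ± 0.11, adjusted p = 0.026, left-out range 0.028 to 0.31). Its other probe set changed by 0.12 and was not called. Interferon-stimulated genes had 4 rises and 0 falls of 26, with a median of 0.12. IFIH1, the RNA sensor MDA5, scored 1.04 and 0.93 in PT and 1.42 and 1.46 in BR (0.46 ± 0.079, adjusted p = 0.0033, and 0.057 without JEKO BR replicate 2). IFI6 (0.44, left-out range 0.044 to 0.16), MX1 (0.37, 0.062 to 0.12) and IRF7 (0.31, 0.074 to 0.35) followed, and no member was called without JEKO BR replicate 2. MHC class I, immunoproteasome and peptide loading genes had 0 calls of 17 in limma (6 unadjusted), with a median of 0.18. Of the 17, 15 were higher, beside 53.4% of all genes tested. MHC class II genes had 0 calls of 15 (1 unadjusted) and a median of 0.013, and HLA-DRA scored 3.26 and 3.33 in PT and 3.30 and 3.28 in BR.

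Of 27 glycolysis and hypoxia genes 6 rose and 0 fell, with a median of 0.19 and 22 higher in BR. The other 5 were lower, and the lowest, PGK1, changed by -0.18 and was not called. ADM, the vasodilator peptide adrenomedullin, scored 1.25 and 1.29 in PT and 2.05 and 2.09 in BR (0.80 ± 0.088, adjusted p = 9.23e-05), and it alone of the 6 held whichever JEKO array was left out. ALDOC, a brain-type aldolase, scored 1.42 and 1.77 in PT and 2.16 and 2.15 in BR (0.56 ± 0.12, adjusted p = 0.014, left-out range 0.010 to 0.20). SLC2A3, the glucose transporter GLUT3, scored 0.74 and 0.89 in PT and 1.22 and 1.48 in BR (0.53 ± 0.11, adjusted p = 0.015, left-out range 0.022 to 0.24), but its other probe set changed by -0.039. NDRG1 (0.38, left-out range 0.085 to 0.28), VEGFA (0.34, 0.043 to 0.24) and GPI (0.30, 0.14 to 0.23) make up the rest. Without JEKO BR replicate 2, and with the GAPDH covariate, the list had 1 rise.

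Histone genes of the replication type had the lowest median of the 37 lists. Of 21 tested genes 9 fell, 0 rose and 19 were lower in BR, with a median of -0.35. H2BC12 scored 3.16 and 3.22 in JEKO PT and 2.34 and 2.45 in BR (-0.79 ± 0.087, adjusted p = 9.23e-05). H1-2, a linker histone, scored 2.64 and 2.54 in PT and 1.82 and 2.02 in BR (-0.67 ± 0.091, adjusted p = 5.85e-04). H2BC21 scored 1.88 and 1.84 in PT and 1.22 and 1.28 in BR (-0.61 ± 0.078, adjusted p = 3.32e-04). These 3 held whichever JEKO array was left out, and they were the 3 called without JEKO BR replicate 2. H2BC6 (-0.60, left-out range 0.017 to 0.12), H4C8 (-0.42, 0.033 to 0.26), H2BC9 (-0.42, 0.050 to 0.15), H2BC5 (-0.39, 0.027 to 0.12), H2BC14 (-0.37, 0.061 to 0.28) and H2AC6 (-0.34, 0.11 to 0.20) fell as well. H2BC12L, outside the list, fell by 0.78 ± 0.12. Most messages of these genes lack a poly(A) tail, and the genes are near copies of each other, so their probe sets can report on relatives and on the few polyadenylated transcripts. With the GAPDH covariate 8 of the 21 fell. In the cell cycle list named above 2 of 36 genes fell and 29 were lower, with a median of -0.062. Whether the histone falls went with the cell cycle was not tested.

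The X-linked ARMCX and BEX families, with their TCEAL relatives, had 4 falls and 0 rises of 12 tested genes and a median of -0.19. This list too was chosen with earlier results of these data known, so its count of falls is no test. Of the 12 genes 10 were lower and 2 higher, with ARMCX4 highest at 0.29 and not called. Besides ARMCX6, its relative ARMCX3 scored 1.64 and 1.497 in PT and 1.13 and 1.11 in BR (-0.45 ± 0.077, adjusted p = 0.0033), and its other probe set fell by 0.46. The call was lost without JEKO BR replicate 2 (adjusted p = 0.055) and without JEKO PT replicate 1 (0.063). BEX3 fell by 0.49 (left-out range 0.061 to 0.13) and TCEAL4 by 0.43 (0.028 to 0.082). Of 22 adhesion genes 2 rose and 2 fell. The tetraspanin CD9 scored 0.996 and 0.97 in PT and 1.497 and 1.65 in BR (0.59 ± 0.10, adjusted p = 0.0029, and 0.076 without JEKO BR replicate 2) on 1 of its 2 probe sets, and ICAM3 rose by 0.41 (left-out range 0.030 to 0.22). PECAM1 fell by 0.44 (left-out range 0.0043 to 0.30), beside CD44.

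Of 27 tested BMP and TGF-beta genes 1, SMAD1, fell and 0 rose, with a median of -0.015. The other receptor-regulated SMAD genes were not called, with SMAD5 at 0.12, SMAD9 at -0.068, SMAD2 at -0.16 and SMAD3 at 0.25. ID1, ID2 and ID3, targets of BMP signalling, changed by -0.14, 0.011 and -0.18 and were not called. Among AKT and PIM survival genes PIM2 and PIM1 (0.34, left-out range 0.075 to 0.23) rose, and TCL1B, a co-activator of AKT, scored 2.88 and 3.05 in PT and 2.40 and 2.34 in BR (-0.59 ± 0.097, adjusted p = 0.0024, and 0.054 without JEKO BR replicate 2), in a list of 16. Of 13 genes of the IGF axis IGFBP2 and IGFBP4 rose. The PT arrays of IGFBP2 lay far apart (0.36 and 1.03, against 1.36 and 1.86 in BR, 0.92 ± 0.20, adjusted p = 0.019, left-out range 0.0073 to 0.28), and IGFBP4 rose by 0.39 (left-out range 0.068 to 0.34). Single genes carried the remaining lists: TNFSF8 was the 1 call of 21 TNF family genes, CFD of 8 complement genes, CT55 of 13 cancer-testis genes and CAV1 of 7 caveolin and cavin genes, where its partner CAV2 changed by -0.083. Of 10 immunoglobulin genes the probe set of IGLL5 was called higher (0.70) and the brightest of IGKC lower. That of IGLL5 scored 1.002 and 0.69 in PT and 1.83 and 1.26 in BR, so its arrays lay apart within each group. It too can bind related light chains, so no direction is given for IGLL5. IGHM scored 3.81 and 3.94 in PT and 3.81 and 3.79 in BR.

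Markers of other cell types were read beside these lists. Of 17 T and NK cell markers with a probe set 8 were bright enough to test, and LCK, CD7 (0.62, left-out range 0.033 to 0.24) and ZAP70 (0.45, left-out range 0.031 to 0.36) rose. Their mean score over the 17 was 0.70 on both PT arrays and 0.85 and 0.89 on the BR arrays. The CD3 subunits of the T cell receptor complex, CD3D (0.78 and 0.65 in PT, 0.70 and 0.71 in BR), CD3E (0.49 and 0.78, 0.85 and 0.40) and CD3G (0.57 and 0.69, 0.71 and 0.49), stayed around or below the array median on all 4 arrays. TRBC1, a gene of a receptor chain itself, was bright enough to test, changed by -0.056 and was not called. Of the 17 markers 8 were below the array median throughout. None of 7 myeloid and none of 5 erythroid markers was called by limma (0 each, 1 unadjusted each). Of 10 stromal and epithelial markers VIM, which B lymphoma lines also express, fell by 0.35 (left-out range 0.11 to 0.21) with PECAM1.

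**Figure D3:**
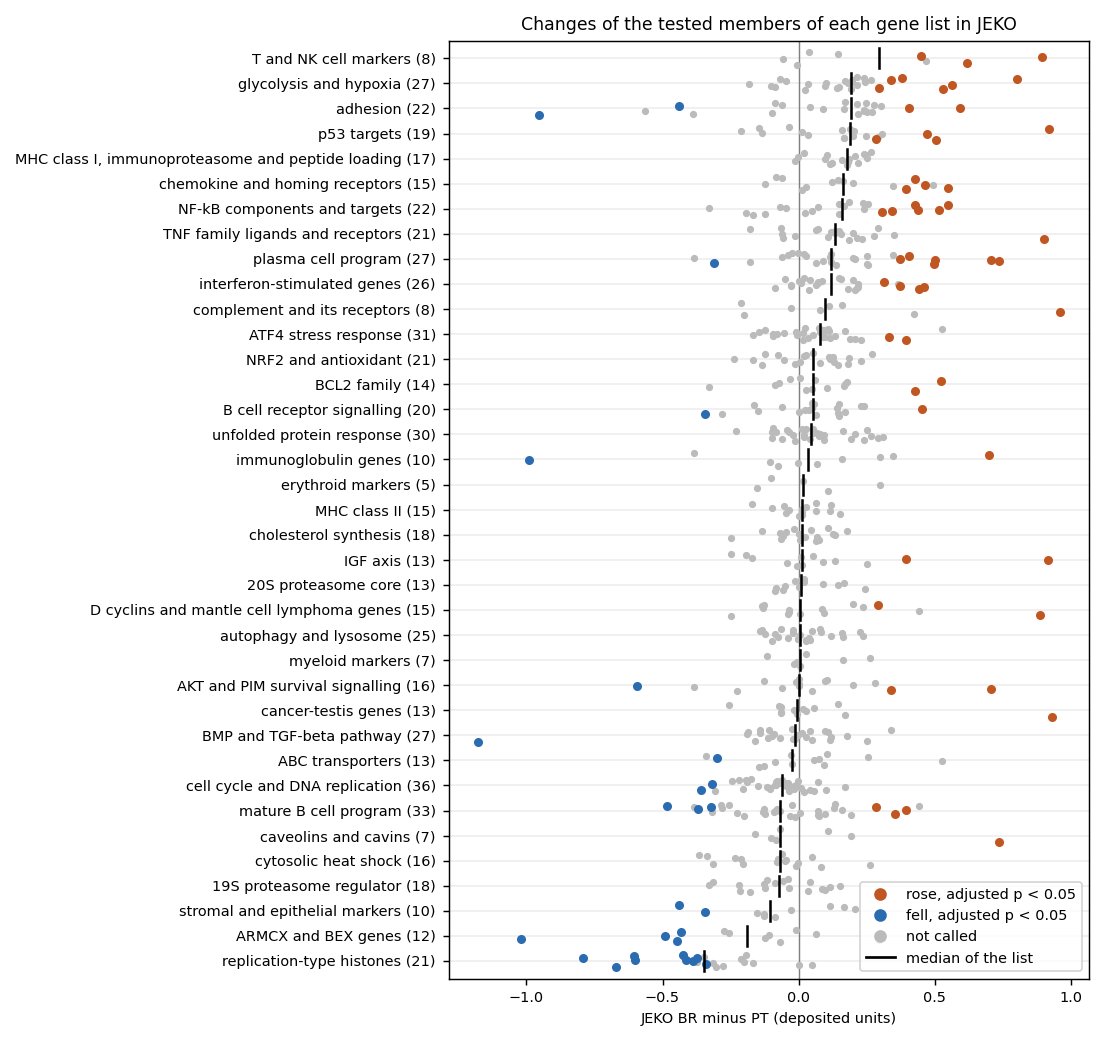
Change of every tested member of 37 gene lists in JEKO (BR minus PT, deposited units), with the number tested in parentheses, orange for rises, blue for falls, grey for genes not called and a black bar at the list's median. Histone genes lie mostly left of 0 with a median of -0.35, while the 20S and 19S proteasome lists hold no coloured points.

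The HBL2 line was set beside JEKO to see where the JEKO changes were shared. The lines share no arrays. Of the 622 JEKO genes 178 were also called in HBL2, which is 28.6% of the JEKO calls and 10.4% of the 1711 HBL2 calls (11.8% of genes tested, 4.91% higher and 6.86% lower in BR). Of these 178, 91 moved the same way and 87 the opposite way. CAV1 (0.74 in JEKO, 0.86 in HBL2), ADM (0.80 and 1.15), MIR146A (0.83 and 0.84) and NLRP7, an innate immune sensor gene (0.69 and 1.15), rose in both. CD44 (-0.95 and -1.11) and TUBB6 (-0.77 and -0.77) fell in both. The difference between the lines was not called for CAV1, ADM, MIR146A, CD44 or TUBB6 (JEKO change minus HBL2 change -0.12, -0.35, -0.0056, 0.16 and 0.0060), and it was for NLRP7 (-0.46, adjusted p = 0.0067).

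Among the 87 genes with opposite calls SMAD1 had the largest difference between the lines: it fell by 1.18 in JEKO BR and rose by 1.004 in HBL2 BR, a difference of -2.18 (adjusted p = 2.32e-09). OXCT1 fell in JEKO (-1.27) and rose in HBL2 (0.68), and so did PCDH9, a protocadherin, from 2.14 on both JEKO PT arrays to 1.55 and 1.46 in BR (-0.64) against 0.77 in HBL2. The other 2 probe sets of PCDH9 changed by -0.54 and 0.010 in JEKO. In the other direction, S100A10, a partner of annexin A2, rose in JEKO on 1 of its 2 probe sets (0.69) and fell in HBL2 (-0.89), as did FCMR, the IgM Fc receptor (0.68 and -0.72), and BIN1, a membrane-bending protein with all 5 of its probe sets up in JEKO (0.76 and -0.64, adjusted p in JEKO 0.054 without JEKO BR replicate 2). CDKN1A (0.51 and -0.37), TNFSF8 (0.90 and -0.44) and CT55 (0.93 and -0.36) were opposite too. The difference itself passed for each of these 9 genes. They were picked for opposite calls in the lines, so a pass was likely from the choice alone. By list, JEKO had 0 falls among MHC class II genes where HBL2 had 10 of 15, and 0 falls in cholesterol synthesis where HBL2 had 14 of 18. The difference between lines was not tested for a list. Over all genes it was called for 1266 (8.71%), and for 658, 696 and 832 without JEKO BR replicate 2, JEKO PT replicate 1 and JEKO PT replicate 2.

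**Figure D4:**
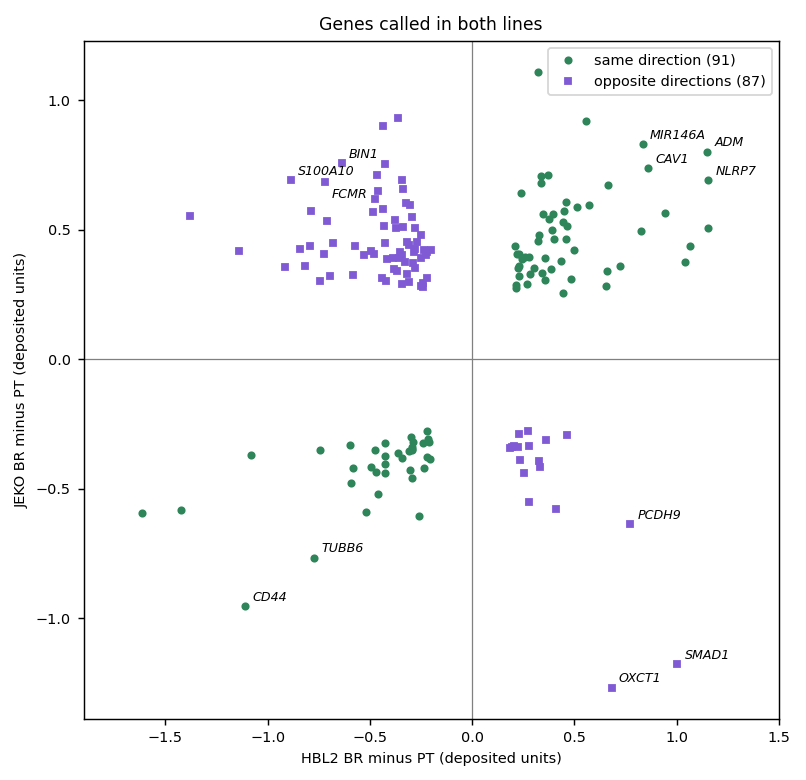
The 178 genes called in both lines, with the HBL2 change on the x axis and the JEKO change on the y axis (BR minus PT, deposited units), green circles for the same direction and purple squares for opposite directions. CD44 and TUBB6 sit low on the left and ADM and CAV1 high on the right, while SMAD1 and OXCT1 sit alone at the lower right.

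Tested genes were put in RefSeq order along the chromosomes, and windows of 25 neighbours with a median change at or below -0.2 or at or above 0.15 were joined into stretches. Both limits were chosen after the values were seen, and the stretches are a description with no test. They were picked by the same changes that give the calls, so nothing is read from the number of calls, or of genes lower or higher, inside them. The 8 lower stretches hold 302 of the 14489 genes ordered (2.08%) and the 15 higher ones 511 (3.53%). The longest lower stretch was on chromosome 11 from ACER3 to MMP7, with 72 genes, 61 of them lower, 15 called and a median of -0.22 (-0.17 without the called genes). Its array medians were 1.51 and 1.56 in PT and 1.31 and 1.38 in BR. Called genes there included GAB2, a signalling adaptor, EED, a subunit of the Polycomb complex, and CTSC, a lysosomal protease. A later stretch of that chromosome from RDX to RBM7 had 25 of 30 genes lower and 7 called, among them SDHD, a subunit of succinate dehydrogenase. Earlier in the order, 27 genes from LOC100130987 to PPP6R3 had a median of -0.21 with 5 called, including GSTP1.

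On chromosome 10, 44 of 54 genes from RBM17 to OTUD1 were lower, 15 were called and the median was -0.22 (-0.14 without the called genes). The array medians there were 1.56 and 1.61 in PT and 1.35 and 1.41 in BR. Called genes included MCM10, a replication factor, SUV39H2, a histone methyltransferase, and DCLRE1C, the nuclease Artemis that V(D)J recombination needs. Shorter lower stretches lay on chromosomes 4 (SLAIN2 to PAICS, median -0.21), X (DOCK11 to XPNPEP2, 27 of 31 genes lower), 16 (KRABD5 to MMP2, median -0.16) and 6, where CARMIL1 to HCG11 holds histone genes and 6 falls. Among higher stretches, the end of chromosome 7 from GHET1 to VIPR2 had 64 of 76 genes higher, 13 called, WDR86 among them, and a median of 0.16 (0.15 without the called genes). On chromosome 17, 23 of 26 genes from YWHAE to OR3A3 were higher, with a median of 0.17. In HBL2 the medians of these stretches were 0.030 (ACER3 to MMP7), 0.014 (RBM17 to OTUD1), -0.10 (GHET1 to VIPR2) and 0.13 (YWHAE to OR3A3). DNA copy number was not measured.

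**Figure D5:**
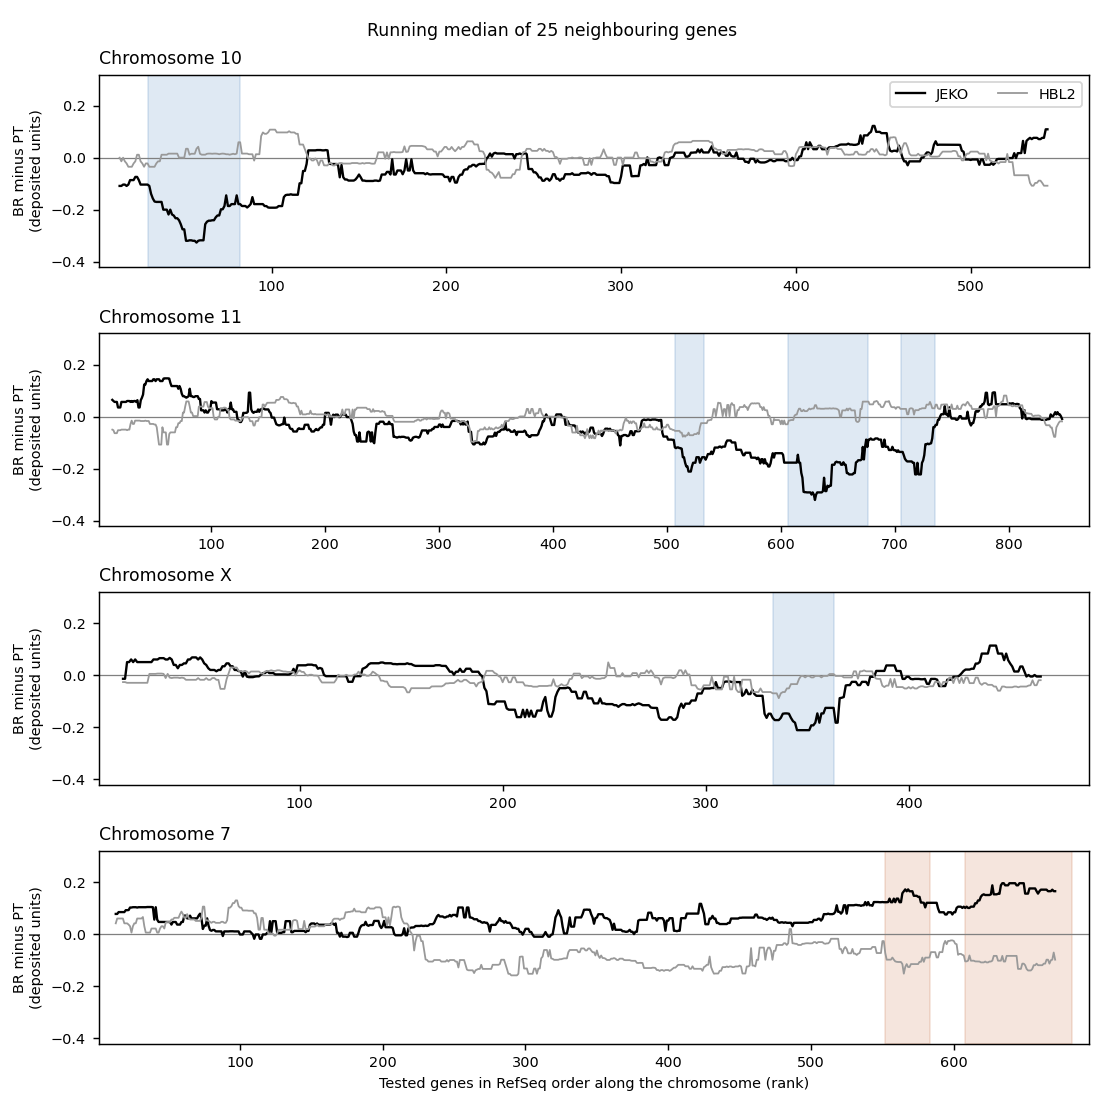
Running median of BR minus PT (deposited units) over 25 neighbouring genes by rank along chromosomes 10, 11, X and 7, with JEKO in black and HBL2 in grey, and stretches shaded blue where JEKO was lower and orange where it was higher. The JEKO line dips to -0.33 on chromosome 10 while the HBL2 line stays near 0 there.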

How the data were processed

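Total RNA from 4 JEKO and 6 HBL2 samples was hybridised to 1 Affymetrix array each. The values are the deposited scores: per the submitters' processing notes they come from MAS5 (no version named), and what followed was not given in the sources used here. Every array holds the same set of score values (largest difference between sorted arrays 0), so a score depends only on rank, and a shift of most genes in 1 direction cannot be seen.

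Control probe sets (62) and those with several symbols (1801) or none listed (11721) were left out. Probe sets had to reach the 50th percentile of the array on 2 or more of 10 arrays, and the brightest stood for its gene. The fit used lmFit and eBayes with an intensity trend (limma 3.58.1, R 4.3.3) on the scores, 4 group means together with 6 residual degrees of freedom, and tests were two-sided. A value after ± is that fit's standard error. The code was tested on simulated data.

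The rule for named genes took the 15 largest rises and 15 largest falls among non-overlapping calls bright enough (50th percentile) in at least 1 JEKO group, up to 4 called members of each of 37 lists (all in lists of 5 or fewer), 35 preset genes (1 not analysed here), genes that crossed from below the 50th to at or above the 75th percentile or back (up to 10 each way), and the 6 genes called in both lines with the largest smaller change in each of 2 directions. The members and lists were chosen with earlier results of these data known. Other list members, stretches and their genes were named after their values were seen. Alternatives were other filters, gene summaries, scales, variance models, covariates, a replicate block and leaving out each array. Promoter and microRNA sequences are RefSeq's (GRCh38.p14).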

Additional observations from a re-analysis of the deposited data

Results flagged for a closer look

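The JEKO change differed from the HBL2 change for 64 of the 114 genes described by the naming rule, by limma's test of the difference itself (adjusted p under 0.05, against 8.71% of all genes tested). Many of these genes were chosen because they changed in JEKO, so this count is not a sign of how often the lines differ. Values in parentheses are the JEKO change minus the HBL2 change in deposited units.

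Genes called in both lines in opposite directions were SMAD1 (-2.18), OXCT1 (-1.95), PCDH9 (-1.41) and CD38 (-0.68), which fell in JEKO BR and rose in HBL2 BR, and S100A10 (1.58), FCMR (1.403), BIN1 (1.39), TNFSF8 (1.33), CT55 (1.29), CCL4 (1.27), SLC2A3 (1.24), LILRA2 (1.18), ICAM3 (1.13), CD9 (0.90), CDKN1A (0.88), IRF7 (0.75) and IFI6 (0.75), which rose in JEKO BR and fell in HBL2 BR. NFKBIZ (-0.63), NLRP7 (-0.46), H2BC21 (-0.35), PIM2 (0.37), BACE2 (0.79) and TCL1B (1.02) were called in both lines in the same direction but by different sizes.

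Among genes called in JEKO and not in HBL2, the difference was negative for MRFAP1L1 (-1.58), KBTBD7 (-1.21), IGKC (-1.06), ARMCX6 (-1.04), YIPF6 (-1.01), SQOR (-0.85), SCRN1 (-0.79), RIOX1 (-0.73), H2BC12L (-0.68), WDR35 (-0.67), H1-2 (-0.66), H2BC12 (-0.61), BEX3 (-0.51), ARMCX3 (-0.47), TYMS (-0.38) and CCNB2 (-0.34). It was positive for WDR86 (1.28), CDKN1C (0.995), LCK (0.92), CCR7 (0.86), PIGR (0.79), CFD (0.79), CCND2 (0.75), LINC01088 (0.70), ALDOC (0.69), NFATC1 (0.67), NPDC1 (0.65), GMDS (0.64), IFIH1 (0.63), CD7 (0.61), FKBP11 (0.61), DDIT4 (0.52), CD22 (0.51), CXCR5 (0.51), F12 (0.51), BCL2 (0.48), ZAP70 (0.47), BIK (0.46), MX1 (0.39) and NOTCH1 (0.38). BACH2 (0.52) was not called in JEKO and fell in HBL2. The value of IGKC belongs to its brightest probe set, while another of its probe sets rose by 2.42 in JEKO BR, and that of CCND2 to the 1 called of its 4 probe sets. What the differences come from was not tested.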

How the results depend on the processing

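Leaving out 1 array at a time gave 120 to 942 called genes, 65 to 536 higher and 55 to 406 lower, lowest without JEKO BR replicate 2 and highest without HBL2 PT replicate 3, and 658 to 1473 genes with a difference between the lines. A JEKO group reduced to 1 array is assumed to vary like the others. With the GAPDH covariate, added after the data were seen, 335 genes were called (186 higher, 149 lower) and 600 differed between the lines. Array weights gave 1032 (586 and 446) and 1948, no intensity trend 389 (240 and 149), normal scores 408 (234 higher), percentile ranks 215 higher, and the fit of JEKO arrays alone 378 lower. The cause of these shifts was not tested. The other settings (no filter, the filters on JEKO arrays or at the 75th percentile, a robust trend, the beta-actin covariate, the median over probe sets, every probe set, no _x_at or _s_at probe sets) stayed within 1.5 times of the 622 calls. With a replicate block 601 genes were called (355 higher, 246 lower) and 1257 differed between the lines. Same-numbered JEKO arrays deviated together with a correlation of only 0.078, so little of their scatter went with the number. That value cannot show whether the samples were paired, and the labels do not say.

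Of 90 called genes named by the rule, 24 kept their call in every alternative run. In 26 of 2698 pairs of gene and setting the direction turned. Without _x_at and _s_at probe sets these were BCL2L11 (-0.072), CCND1 (0.24) and IGKC (2.42), and with the median over probe sets CAV2 (0.16), CCND2 (-0.072), CIITA (0.077), HSPA5 (0.0075), IGKC (0.21) and PMAIP1 (0.014). With the GAPDH covariate they were HSPA5 (0.012) and PMAIP1 (0.023), and with the beta-actin covariate HSPA5 (0.014). Leaving out 1 array turned genes not called with all arrays: BACH2 (-0.085 to 0.021), CAV2 (-0.18 to 0.015), CD5 (-0.25 to 0.0010), CIITA (-0.22 to 0.11), HSPA5 (-0.12 to 0.090), PAX5 (-0.075 to 0.047), PMAIP1 (-0.25 to 0.10) and PSMB5 (-0.045 to 0.021). The number of arrays limits the precision, and genes dimmer than the filter were tested only in the fit without it.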
